A study of Mus musculus with 4 samples.

Results

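The genes described are the enzymes and remodeling factors that write, erase or move chromatin marks: lysine and arginine methyltransferases, lysine demethylases, acetyltransferases, deacetylases, sirtuins, DNA methyltransferases and TET dioxygenases, SWI/SNF, ISWI and CHD remodelers and ARID proteins. They were chosen by symbol family (Kdm, Kmt, Kat, Hdac, Sirt, Setd, Ehmt, Ezh, Dnmt, Tet, Suv, Prmt, Smarc, Chd and Arid, with Dot1l, Crebbp and Ep300). No measured value entered that rule, but earlier results of these data were known when it was set. The families held 122 of the 24689 genes in the table, and 109 of the 122 reached the testing level, a mean of 1 CPM (reads scaled to each library's total). RNA sequencing covered 4 libraries from HT-22, a line of immortalized hippocampal neurons of the mouse, taken at passages 21 to 24. Of these, 2 were controls, which the labels name both wild type and uninduced, and 2 came from cells with induced Pja2, titled Pja2-pb; the means of induction is not given. Pja2 is a RING ubiquitin ligase that acts on the regulatory subunits of protein kinase A. The labels do not say whether replicates were separate cultures. The p-values therefore set the difference between groups only against the spread of the libraries within them, which may be technical.

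Nucleosomes carry acetyl and methyl groups that enzymes add and remove, and these marks decide which reader proteins and remodeling machines act at a promoter or enhancer. Acetyltransferases open chromatin and deacetylases close it, whereas lysine methylation marks active or silent genes depending on the residue. In hippocampal neurons the same enzymes are known for their part in activity-dependent transcription and memory, Crebbp and the class IIa deacetylases among them.

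Pja2 itself stood at 6167 and 5881 normalized reads in the controls against 54830 and 54244 in the induced libraries, a 9.05-fold higher level (log2 fold change 3.18, SE 0.06; limma adjusted p = 6.36e-05). Normalized reads are the deposited values taken off the log2 scale. Library totals ran from 25787452 to 35262653 reads. Neuronal markers gave an uneven picture of the line: Tubb3, Syn1, Eno2 and Camk2a were tested, and the other 6 of 10, Dcx, Nefl and Syp among them, stayed under 50 normalized reads in every library. Summed neuronal markers were 5957 and 5851 in the controls against 5837 and 5367 in the induced libraries. Eno2 made up most of that sum, at 3965 and 4107 against 3879 and 3407. Tubb3 went the other way, at 622 and 574 against 711 and 728, and none of the 4 tested was called. The 9 fibroblast and mesenchyme markers summed to 461868 to 526380. Of these 9, 2 fell (Col3a1 and Dcn), beside 1.34% of all tested genes, and their part in the results below was not tested. Astrocyte markers summed to 3021 to 4271, oligodendrocyte lineage markers to 4780 to 5959, and microglia and macrophage markers to 1659 to 2250. In bulk RNA, fewer cells of a type and less RNA per cell cannot be told apart.

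Most chromatin genes were well expressed. Per kilobase of exon, the tested members had a median level of 299.7 normalized reads, beside 241.9 over all 13276 tested genes, and 64 of the 109 lay above the latter median. Chd4, the NuRD remodeling ATPase, was the most abundant at 2749 per kilobase, at percentile 95.7 of tested genes. Dnmt1, the maintenance DNA methyltransferase, followed at 2273 and Hdac1, a class I deacetylase of NuRD and SIN3, at 2250. At least 1000 per kilobase was also reached by Smarcc2 (1674), a BAF scaffold, Ehmt2 (1196), which methylates H3 lysines in silent chromatin, Smarca4 (1168), a BAF ATPase, Prmt1 (1119), the main arginine methyltransferase, and Chd3 (1092), so 8 genes in all. At the low end, 17 of the 109 were below 100 per kilobase, with Hdac9 at 2.52 and Sirt5 at 9.96.

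**Figure D1:**
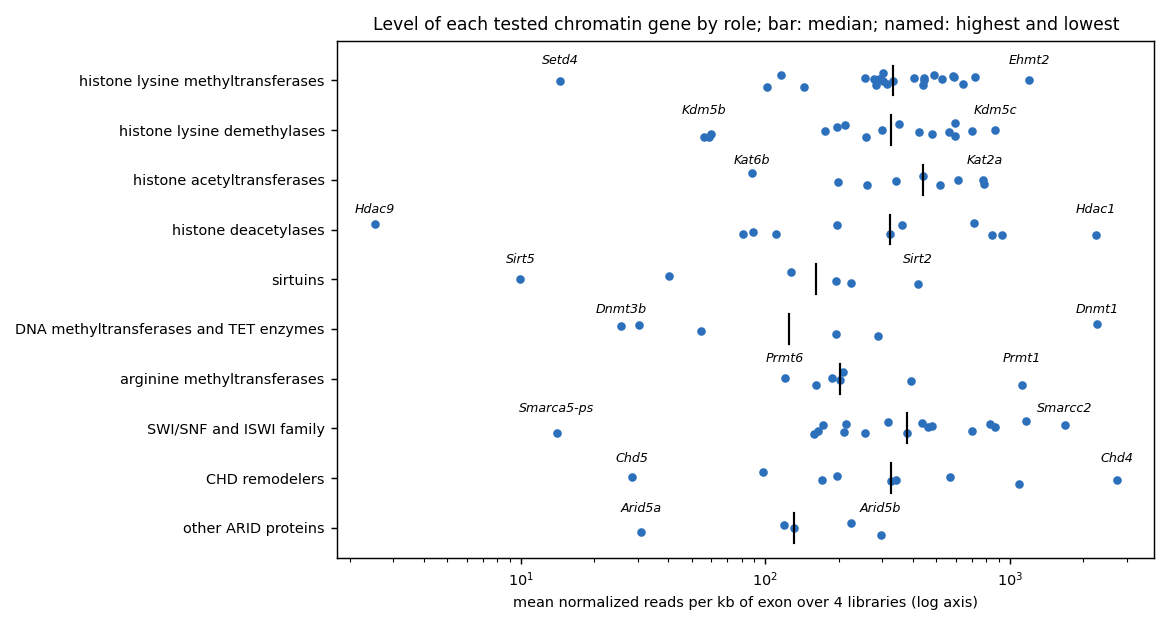
Level of the tested members by role, as mean normalized reads per kilobase of exon on a log axis; each point is 1 gene and each bar the median of a role. Chd4 is highest at 2749 and Hdac9 lowest at 2.52.

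Induction of Pja2 was accompanied by few changes among these genes. By limma with Benjamini-Hochberg adjustment over the 13276 genes at 0.05, Kdm2a rose and Hdac5 fell, so 2 of the 109 changed (1.83%), beside 454 of all tested genes (3.42%). In the upward direction that was 1 member (0.917%) against 276 genes (2.08%), and in the downward direction 1 member (0.917%) against 178 genes (1.34%). Chromosome 16, with 403 tested genes, held 85 of the 276 and 6 of the 178. Crebbp and Setd4 are the only tested members there. The part of that chromosome in the gap between these shares was not tested. Without adjustment, 15 of the 109 had p under 0.05 (13.8%), beside 19.1% of all tested genes. Log2 fold changes were above 0 for 56 and below 0 for 53, with a median of 0.02 (all tested genes 0.00). Both induced libraries lay above both controls for 32 members (29.4%; all tested genes 26.2%) and below both for 22 (20.2%; all tested genes 25.1%).

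For most of the genes the intervals were narrow enough to bound the difference between these libraries. With 2 libraries a group that may be technical replicates, they do not bound the effect of induction in other cultures. The 95% interval of the fold change lay within 1.5-fold in either direction for 90 of the 109 (82.6%), beside 67.5% of all tested genes, and reached past it for 19. Observed changes were under 1.2-fold for 94 (86.2%; all tested genes 74.4%). The members had longer exons (median 6.80 kb against 4.08 kb) and a higher median level per kilobase. Of 5208 other genes between the members' CPM quartiles (28.3 to 133.5 CPM), 87.5% had intervals within 1.5-fold and 3.73% were called. That range leaves out the members of lowest and highest CPM, so the 87.5% and the 82.6% cover unlike ranges. The part of length and reads in the width of the intervals was not tested. Replicates of a member differed by a median of 0.11 on the log2 scale in both groups. The most divergent were Setd4 in the controls (0.80) and Tet2 in the induced libraries (0.69).

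**Figure D2:**
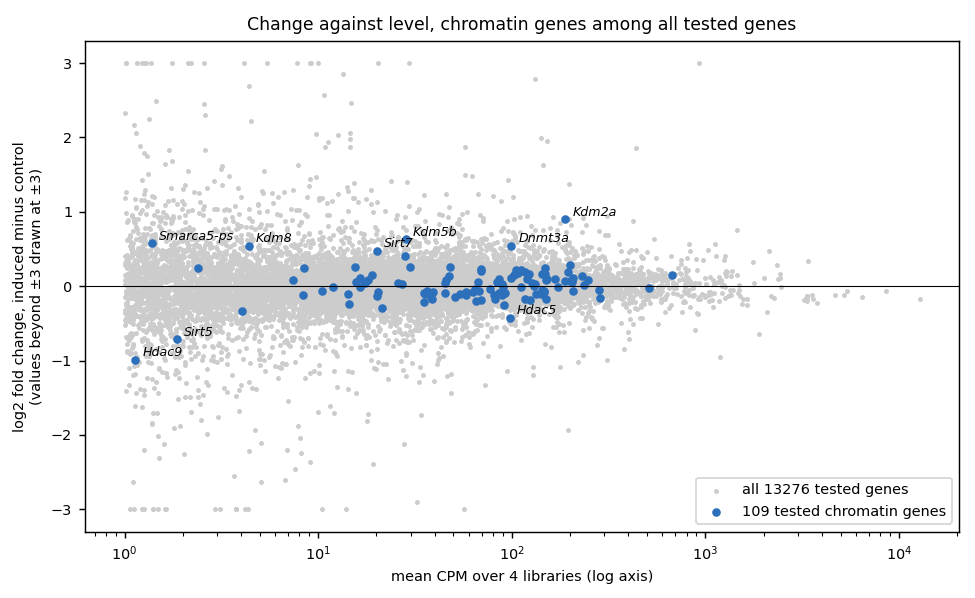
Log2 fold change (induced minus control; values beyond 3 in either direction are drawn at 3) against mean CPM (log axis) for all 13276 tested genes in grey, with the 109 tested chromatin genes in blue. Kdm2a (0.90) and Hdac5 (-0.43) are the 2 called members, and most others lie near 0.

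Among the erasers of lysine methylation, 16 of 20 genes were tested, 1 rose and none fell (unadjusted p was under 0.05 for 4; limma voom on the reads also called none lower), with a median log2 fold change of 0.05. The gene that rose was Kdm2a (ENSMUSG00000054611, chromosome 19), a JmjC demethylase that binds CpG islands through a CXXC zinc finger. It was at 4555 and 4064 normalized reads in the controls against 8001 and 8049 in the induced libraries, the largest rise of any tested member. Its means were 4309 ± 347 (SD, n = 2) and 8025 ± 33.8 (SD, n = 2), 1.86-fold higher (log2 fold change 0.90, SE 0.07, 95% interval 0.71 to 1.08; limma adjusted p = 0.00732). Among the 30 nearest tested genes on chromosome 19 the median log2 fold change was 0.18, with 23 above 0 and none higher by limma at adjusted p under 0.05. Kdm2b, its paralog and a partner of a variant PRC1, was at 2277 and 2282 in the controls against 1954 and 2032 in the induced libraries (log2 fold change -0.19; adjusted p = 0.213). The Kdm2a to Kdm2b ratio per kilobase was 1.505 and 1.340 in the controls against 3.08 and 2.98 in the induced libraries.

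Kdm5b, which removes methyl groups from H3 lysine marks of active promoters, was at 806 and 651 in the controls against 1160 and 1083 in the induced libraries. Those groups did not overlap, but the change missed the threshold (log2 fold change 0.63, interval 0.32 to 0.94; limma adjusted p = 0.0638). It passed without control replicate 1 (0.78; adjusted p = 0.0426). Kdm5c, the most abundant demethylase per kilobase (870), had a log2 fold change of 0.07, and Kdm4a (697) one of 0.17 (interval 0.00 to 0.34). Intervals within 1.5-fold were found for 13 of the 16.

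**Figure D3:**
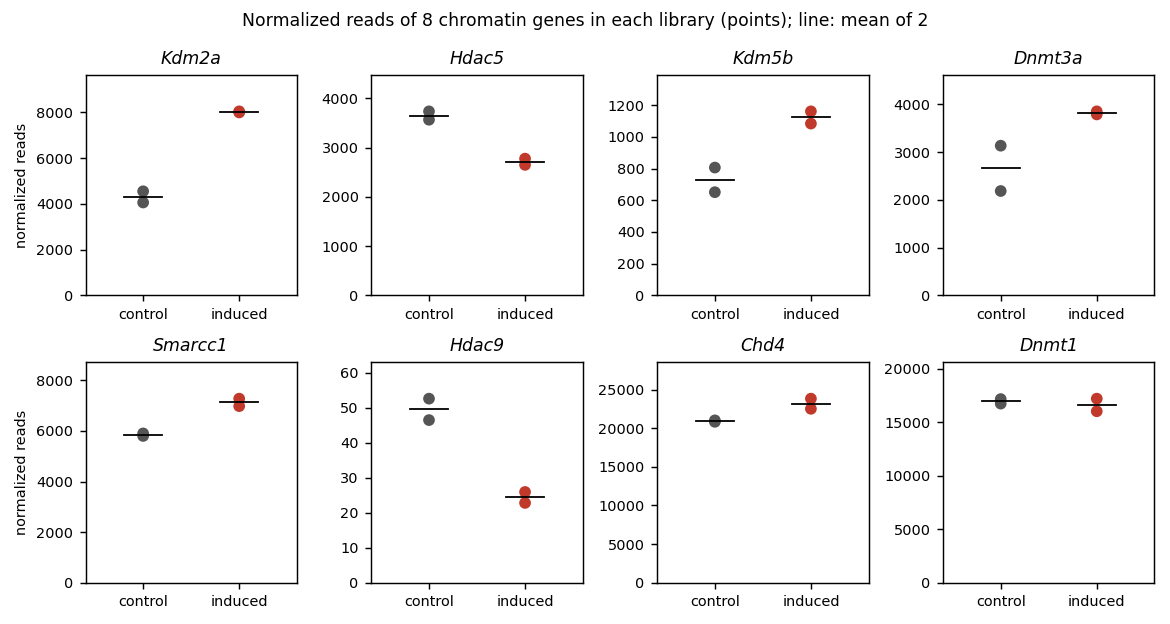
Normalized reads of 8 chromatin genes in each of the 4 libraries (points), with a line at the mean of each group of 2. For Kdm2a both induced libraries lie near 8025, above both controls, and for Hdac5 both lie below them.

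Of the 11 deacetylases, all tested, 1 fell and none rose (limma voom also called none higher; unadjusted p was under 0.05 for 2, Hdac5 and Hdac9). Hdac5 (ENSMUSG00000008855, chromosome 11), a class IIa deacetylase that shuttles between nucleus and cytoplasm and represses MEF2 targets, was at 3737 and 3567 in the controls against 2651 and 2778 in the induced libraries. Its means were 3652 ± 120 (SD, n = 2) and 2714 ± 89.4 (SD, n = 2), a log2 fold change of -0.43 (SE 0.07, interval -0.60 to -0.26; limma adjusted p = 0.0353). The call was lost on leaving out each library in turn, with log2 fold changes of -0.46 to -0.39 in those fits. They have fewer libraries than the main fit, and the part of that in the lost call was not tested. Its exons overlap Mir8101 and the kit does not mark strand, so reads of the overlap cannot be assigned to one gene.

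Hdac9, another class IIa member, was low at 46.5 and 52.7 in the controls against 22.8 and 26.0 in the induced libraries. The log2 fold change of -0.99 had a wide interval (-1.75 to -0.24; limma adjusted p = 0.167). Hdac5 and Hdac9 were the deacetylases in which both induced libraries lay below both controls (2 of 11, beside 25.1% of all tested genes). In 1 of 11 they lay above both (all tested genes 26.2%). The remaining class IIa genes, Hdac4 and Hdac7, had log2 fold changes of -0.08 and 0.16, with overlapping groups; the first was 0.16 without control replicate 1 and the second -0.04 without control replicate 2. The class I enzymes had small differences: Hdac1 was at 7752 and 7632 against 7784 and 7837 (log2 fold change 0.02, interval -0.12 to 0.16), and Hdac2 had 0.05. Hdac3, the NCoR deacetylase, was at 4293 in induced replicate 1 and between 3099 and 3150 in the other 3 libraries.

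The promoters of Hdac5 and Hdac9 are shown for their contrast in CpG content, with each CG in capitals. For each gene the entry with the most CG was used, here and in the shares below. The RefSeq-derived windows of 300 bases run from 250 before to 50 after the start (GRCm38.p6; minus strand), at chr11:102230123-102230422 for Hdac5 and chr12:34528840-34529139 for Hdac9.
Hdac5: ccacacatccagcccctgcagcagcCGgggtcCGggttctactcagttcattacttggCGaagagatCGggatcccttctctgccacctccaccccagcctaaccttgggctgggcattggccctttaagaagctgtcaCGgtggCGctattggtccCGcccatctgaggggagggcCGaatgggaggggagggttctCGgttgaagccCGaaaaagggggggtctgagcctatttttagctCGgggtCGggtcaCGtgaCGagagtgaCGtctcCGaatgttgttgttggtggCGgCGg
Hdac9: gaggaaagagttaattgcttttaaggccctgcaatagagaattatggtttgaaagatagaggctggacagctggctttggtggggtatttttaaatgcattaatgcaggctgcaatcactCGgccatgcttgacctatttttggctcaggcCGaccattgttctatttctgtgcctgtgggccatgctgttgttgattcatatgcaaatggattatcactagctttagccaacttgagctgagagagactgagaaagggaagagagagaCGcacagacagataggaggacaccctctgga
The Hdac5 window held 18 CG dinucleotides and the Hdac9 window 3, beside 32 for Hdac4 and 35 for Hdac7. CG reads the same on both strands. At least 10 were found in 94.3% of the 88 tested members with an entry, against 86.7% of 9197 tested genes of the table. Promoter content was measured on the reference alone and its part in the changes was not tested.

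Sirtuins, the NAD-dependent deacylases, gave no call in 6 tested of 7 (1 had an unadjusted p under 0.05; limma voom called none). Sirt7, which is nucleolar, was at 523 and 572 in the controls against 844 and 685 in the induced libraries (log2 fold change 0.47, interval 0.15 to 0.80; adjusted p = 0.142). Sirt5, a mitochondrial desuccinylase, had a log2 fold change of -0.71 at under 100 normalized reads (adjusted p = 0.334). Sirt2 (419 per kilobase) and Sirt6 (223) were the most abundant, at -0.04 and 0.15. Sirt1 was almost unread, with 0 and 5 reads in the controls against 0 and 0 in the induced libraries, although it is known as a broadly expressed gene; the cause was not tested.

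The largest family, 23 lysine methyltransferases, was tested in full and gave no call (unadjusted p under 0.05 for 2; limma voom also called none). Changes stayed between -0.15 (Kmt5c) and 0.24 (Setd4), and 22 of 23 had an interval within 1.5-fold. The Setd4 value turned on single libraries, at -0.16 without control replicate 1 and 0.64 without control replicate 2. Ehmt2 had 0.06 and Kmt5a (718 per kilobase), the H4 monomethyltransferase, 0.19 (interval 0.04 to 0.35; adjusted p = 0.178). Ezh2, the PRC2 catalytic subunit, was at 3805 and 3768 against 4051 and 4034, and its paralog Ezh1 at 2062 and 1880 against 1775 and 1861. The MLL-type enzymes Kmt2a to Kmt2d ranged from -0.12 to 0.06.

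The 9 tested acetyltransferases of 10 likewise gave no call, and none had an unadjusted p under 0.05 (limma voom called none). All 9 intervals lay within 1.5-fold. Kat2a (786 per kilobase) and Kat7 (773), the catalytic subunits of SAGA-type and HBO1 complexes, had log2 fold changes of 0.05 and 0.02. Crebbp and Ep300, paralogous coactivators, had differences of opposite sign: Crebbp was at 3395 and 3225 against 3549 and 3915 (0.17; adjusted p = 0.300), and Ep300 at 5295 and 5111 against 4390 and 4820 (-0.18; adjusted p = 0.262). Their ratio per kilobase was 0.676 and 0.665 in the controls against 0.852 and 0.856 in the induced libraries. Crebbp lies on chromosome 16, where the median log2 fold change of 403 tested genes was 0.31, with 85 higher and 6 lower; other chromosomes had medians of -0.09 to 0.05. Of its 25 nearest tested genes all 25 were above 0 (median 0.29). The shift was not even along the chromosome: Setd4, the other tested member there, had 30 nearest tested genes with a median of 0.02, 16 of them above 0. The part of the shift in the Crebbp value was not tested.

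Of the 8 DNA methyltransferase and TET genes, 6 were tested and none passed (1 had an unadjusted p under 0.05; limma voom called none). This family was the least tightly bounded, with 2 of 6 intervals within 1.5-fold. Dnmt1 was at 16726 and 17147 against 16013 and 17189 (log2 fold change -0.03, interval -0.19 to 0.13). Dnmt3a, a de novo methyltransferase, was at 3135 and 2186 in the controls against 3854 and 3789 in the induced libraries (0.55, interval 0.14 to 0.95; adjusted p = 0.162). The wide gap between the 2 controls set that error, and without control replicate 1 the change was 0.81 with an adjusted p of 0.0194. Its exons overlap Dnmt3aos. Tet3, the most abundant TET oxidase (289 per kilobase), had 0.24 (interval 0.00 to 0.49).

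Arginine methyltransferases had no call in 7 tested of 8 (limma voom called none). Unadjusted p was under 0.05 for 4 of the 7 (all tested genes 19.1%), and both induced libraries lay above both controls for 2 (all tested genes 26.2%) and below both for 3 (all tested genes 25.1%). Prmt5, which places symmetric dimethyl marks, was at 1364 and 1471 against 1705 and 1697 (0.26; adjusted p = 0.157). Prmt2 was at 747 and 796 against 643 and 617 (-0.29; adjusted p = 0.187). Prmt1 had -0.18.

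The SWI/SNF and ISWI list was tested in full (17 of 17) with no call (unadjusted p under 0.05 for 1; limma voom called none). Smarcc1, a BAF scaffold subunit, came closest, at 5904 and 5804 against 6982 and 7278 (0.28, interval 0.14 to 0.43; adjusted p = 0.0704); its exons overlap Dhx30. The paralogous scaffold Smarcc2 was at 10016 and 9573 against 8388 and 9204 (-0.16; adjusted p = 0.305). Their ratio per kilobase was 0.418 and 0.430 in the controls against 0.590 and 0.561 in the induced libraries. Smarca4 and Smarca2, the alternative ATPases, kept overlapping ratios, at 6.70 and 8.68 against 7.01 and 7.35. The pseudogene Smarca5-ps had the largest change of the list, 0.58 at under 60 normalized reads (adjusted p = 0.347).

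CHD remodelers gave no call in 9 tested of 11, and none had an unadjusted p under 0.05 (limma voom called none). Chd4 had 0.15 and Chd9 -0.19 (interval -0.41 to 0.04). The 5 tested of 7 other ARID proteins also had no call or unadjusted p under 0.05 (limma voom called none). Log2 fold changes ran from -0.25 (Arid5b) to -0.01 (Arid5a), and the lowest adjusted p was 0.357 (Arid4a). Arid5b was at -0.02 without control replicate 1 and at -0.48 without control replicate 2 (adjusted p = 0.0545). Arid4b was at 0.05 without control replicate 1, and Arid5a at 0.08 without control replicate 2 and 0.11 without induced replicate 1.

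**Figure D4:**
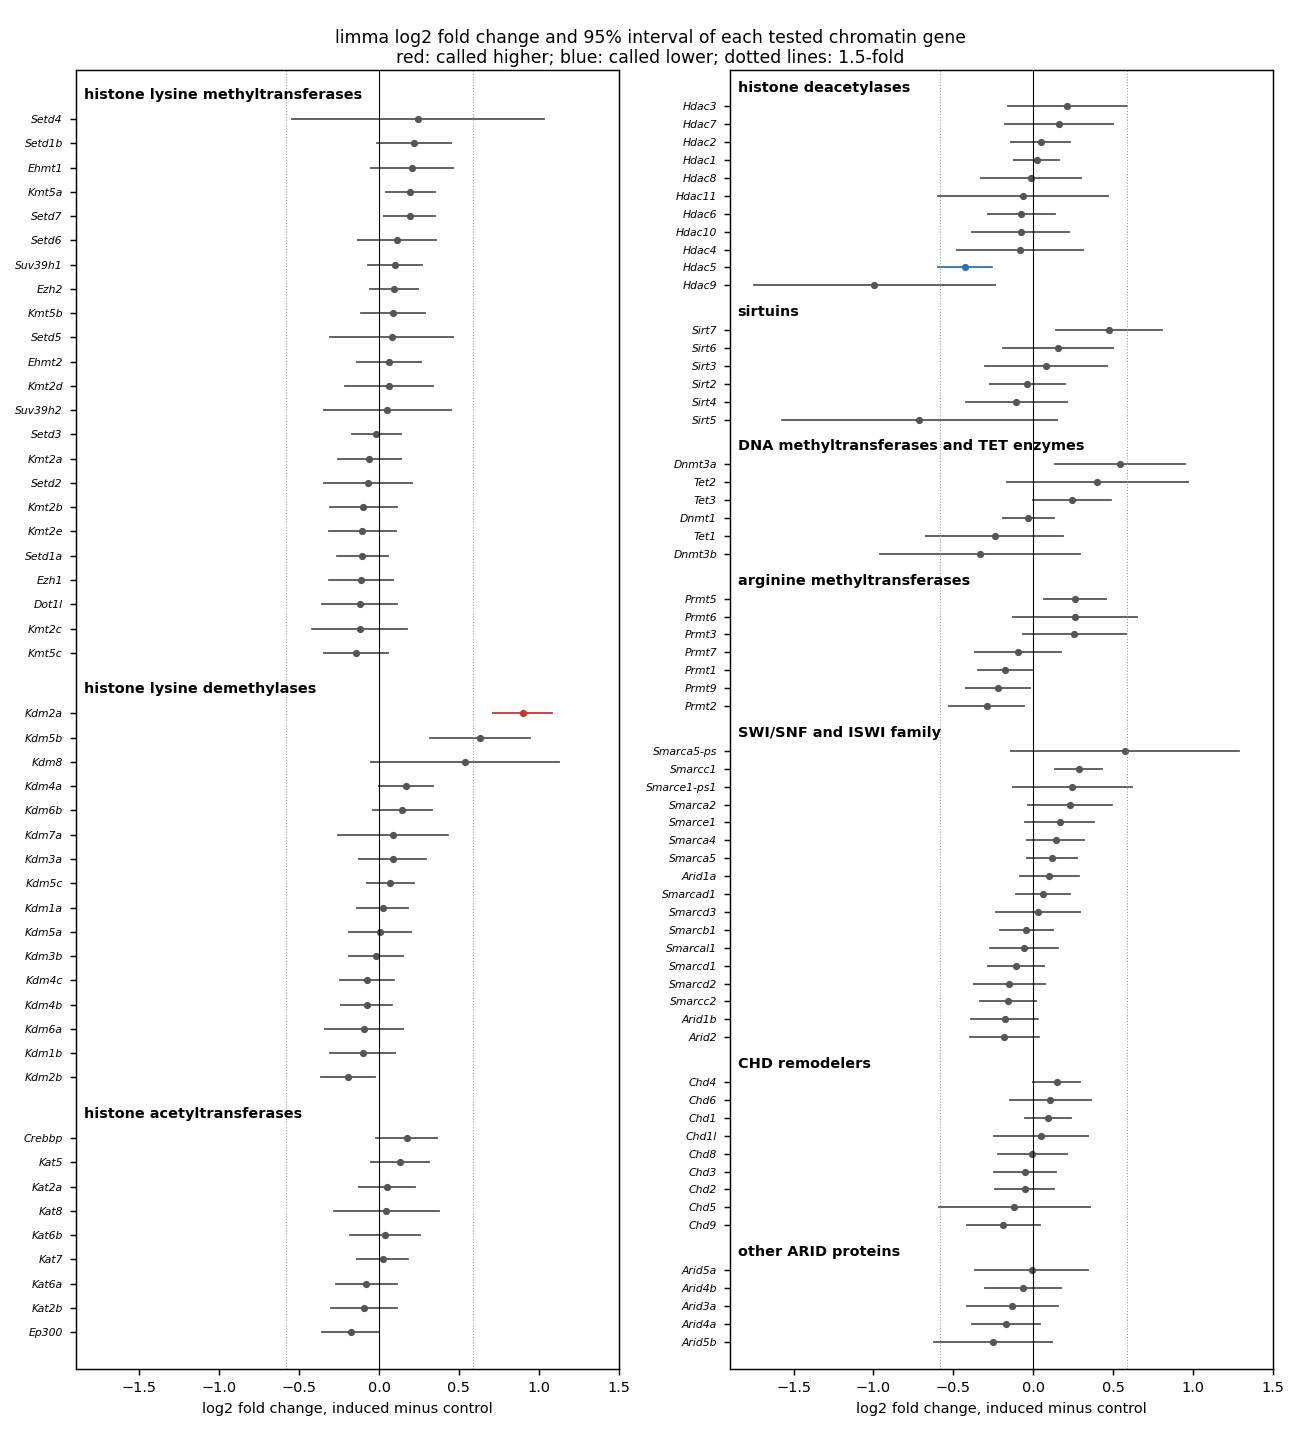
Log2 fold change with its 95% interval for each of the 109 tested chromatin genes by role, induced minus control, with dotted lines at 1.5-fold. Kdm2a (0.71 to 1.08) and Hdac5 (-0.60 to -0.26) passed the adjusted threshold, and Hdac9 has a wide interval at -1.75 to -0.24.

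In all, 15 pairs of paralogs or alternative subunits were set side by side, chosen with these values known. An exact permutation test of 2 against 2 cannot go below p = 0.333, so the ratios are descriptions. Beside the pairs above, Hdac7 to Hdac5 was 1.81 and 1.43 against 2.38 and 2.47, and Kdm5b to Kdm5a 0.155 and 0.138 against 0.242 and 0.210. Hdac1 to Hdac2 (2.55 and 2.33 against 2.30 and 2.49) and Suv39h1 to Suv39h2 (4.998 and 4.07 against 4.05 and 5.35) overlapped between groups.

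**Figure D5:**
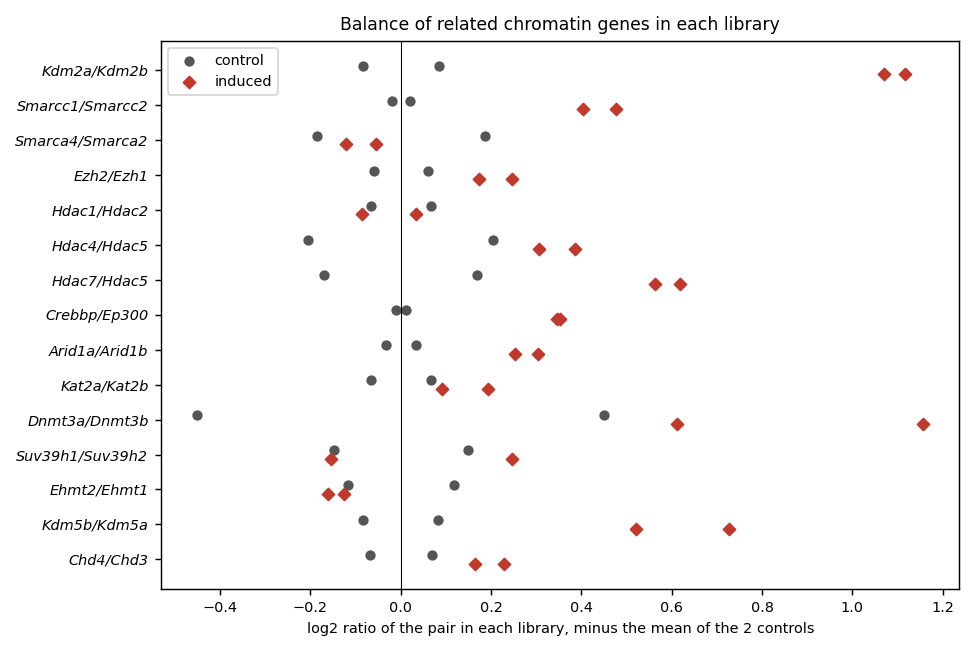
Log2 ratio of levels per kilobase within 15 pairs in each library (points), minus the mean of the 2 controls. Before that subtraction and off the log scale the Kdm2a to Kdm2b ratio is 1.340 to 1.505 in the controls and 2.98 to 3.08 in the induced libraries.

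The 13 members below the testing level are given by their reads, with no fold. Those annotated as protein coding were Sirt1; Chd7, a CHD remodeler of neural crest known from CHARGE syndrome, at 14 and 35 against 25 and 39 reads (0.902 CPM); Arid3b (9 and 14 against 24 and 36); Dnmt3l, a cofactor of de novo methylation in germ cells (11 and 19 against 15 and 6); Kdm4d (0 and 5 against 10 and 5); Prmt8, a neuronal membrane-bound enzyme (0 and 4 against 0 and 0); Arid3c (0 and 1 against 0 and 7); Chd3os (6 and 13 against 4 and 15); and Kdm5d (0 and 0 against 1 and 0). The pseudogenes Dnmt3l-ps1, Kat2b-ps and Kdm4dl and the antisense transcript Kdm6bos had 0 to 27 reads in any library.

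Beyond these families, 204 subunits and readers of the same complexes were looked up in 14 lists, and 198 were tested. Of these, 3 rose and none fell (limma voom also called none lower), beside 2.08% higher and 1.34% lower of all tested genes. An unadjusted p under 0.05 was found for 30 (15.2%; all tested genes 19.1%), with a median log2 fold change of 0.01. Uhrf2, a hemimethylated-DNA reader, was at 2041 and 2274 against 3443 and 3760, 1.67-fold higher (0.74; adjusted p = 0.0179). Its 30 nearest tested genes on chromosome 19 had a median of 0.15, with 19 above 0 and 3 higher by the test. Their part in the Uhrf2 value was not tested. Kansl2, a subunit of the NSL acetyltransferase complex, was at 5382 and 5549 against 7393 and 7707 (0.47; adjusted p = 0.0228), and its exons overlap Snora2b. That call was lost without control replicate 1, induced replicate 1 or induced replicate 2 (log2 fold changes 0.44 to 0.50). Hira, the H3.3 chaperone, was at 2412 and 2398 against 3084 and 3189 (0.38; adjusted p = 0.0405). It lost its call without each library (log2 fold changes 0.36 to 0.41). Hira lies on chromosome 16, and its 30 nearest tested genes had a median of 0.40 with 8 higher by the test, beside its own 0.38; the part of the shift in this result was not tested. Of the rest, Trim24, a bromodomain corepressor, was at 5019 and 4130 against 3323 and 3179 (-0.49; adjusted p = 0.0731, and 0.0311 without control replicate 2). Smyd3 and Baz1a, a SET methyltransferase and an ISWI partner, had 0.38 and 0.34 (both adjusted p = 0.0622). Riox1, a JmjC protein, had 0.95 at low reads (adjusted p = 0.166, and 0.0378 without control replicate 1). Intervals within 1.5-fold covered 178 of the 198 (89.9%).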

How the data were processed

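RNA was sequenced from 2 control and 2 induced HT-22 libraries made with a TruSeq kit that does not mark strand. The submitters' processing notes name HISAT, Cufflinks and the build mm9, without versions; the read counter is not given in the sources used here. As for units, the authors' deposited values are log2(normalized reads + 1): taken off that scale, every value fell on a multiple of a library-specific step (tolerance 0.01), so whole reads were recovered. limma 3.58.1 with a trend (R 4.3.3) was fitted to the deposited log2 values of the 13276 genes averaging 1 CPM or more, with Benjamini-Hochberg adjustment and two-sided p-values; the pseudocount of 1 understates changes of low genes. The self-test used simulated data. Exon lengths and overlaps came from GENCODE vM21, which held all 122 members; its build differs from the authors', so gene coordinates are not given. Promoter sequences and their coordinates came from the RefSeq table on its own build, GRCm38.p6 (95 members matched).

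The members and lists were chosen with earlier results of these data known. Named genes were Pja2, every called member, the 2 most abundant and the largest uncalled change of each role, all untested members, and, of partner lists, called genes and the largest remaining change. Others (Kdm2b, Smarcc1, Sirt7, Hdac3, Hdac4, Hdac7, Ezh1, Ezh2, Crebbp, the pairs) were named after their values were seen. The 11 alternatives were other filters, pseudocount, voom, scalings, a replicate block and leaving out each library.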

Additional observations from a re-analysis of the deposited data

How the results depend on the processing

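Kdm2a and Uhrf2 kept their calls under all 11 alternatives. Hdac5 kept its call in 5 of 11, Kansl2 in 6 and Hira in 5. The members higher numbered 1 and the members lower 0 with no filter and with the replicate block, where Hdac5 had an adjusted p of 0.0754 and 0.0762; with no filter more genes are tested. Over all tested genes, no filter gave 100 higher and 59 lower, and the replicate block 157 and 104. Leaving out 1 library gave 1 to 3 members higher and 0 members lower, and 113 to 204 genes higher and 78 to 136 lower. The members' median log2 fold change ran from -0.02 (without induced replicate 2) to 0.04 (upper-quartile scaling). Neither called member changed sign under any alternative, but 38 of the 109 did under at least 1, 37 of them on leaving out 1 library; with all 4 libraries their changes were 0.24 or less in size on the log2 scale. Among named genes, the log2 fold change over the 4 fits without 1 library ran for Setd4 from -0.16 to 0.64, Ehmt2 from -0.027 to 0.154, Kat7 from -0.018 to 0.064, Hdac2 from -0.0079 to 0.103, Sirt2 from -0.154 to 0.079, Dnmt1 from -0.081 to 0.021 and Chd3 from -0.123 to 0.023. The deviations of replicate 1 from the group means had a correlation of -0.10 between control and induced over 13276 genes. With 2 libraries a group, that value cannot decide whether same-numbered replicates shared a batch. The fit has 2 libraries a group and 2 residual degrees of freedom, and intervals reached past 1.5-fold for 19 members, genes with few reads such as Hdac9 and Sirt5 among them.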
